A study of Mus musculus with 12 samples.

Results

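The MYC, MAX and MXD network genes are 9 transcription factor genes, Myc, Mycn, Mycl, Max, Mxd1, Mxd3, Mxd4, Mxi1 and Mnt, taken from the count table by symbol. Each symbol matched 1 Ensembl identifier, so all 9 were found among the 49315 genes counted. RNA-seq counts came from 12 C57BL/6 mouse libraries, 3 in each of 4 groups, and no genetic change is given in the labels for any group. Group 2 innate lymphoid cells (ILC2s, tissue lymphocytes without antigen receptors that make type 2 cytokines) were sorted from lung, grown with IL-25 and IL-33 on top of IL-2 plus IL-7, held 48 h with the latter pair alone, and washed. Eosinophils (granulocytes of type 2 immunity) came from blood as cells not retained by B220 and CD90 beads and were kept 24 h with IL-33 before washing. The groups were ILC2s alone, ILC2s with eosinophils, eosinophils alone and eosinophils with ILC2s, all held 24 h in medium without cytokines, and cocultured cells were then separated by flow cytometry. Every eosinophil used had been given IL-33, and ILC2s and eosinophils differ in tissue and earlier cytokines as well as in cell type, so these cannot be told apart.

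MYC proteins bind DNA as partners of MAX at E-box sites, of which CACGTG is the preferred form, and raise transcription of genes for growth, ribosome making and nucleotide synthesis. The MXD proteins (MXD1, MXI1, MXD3 and MXD4) and MNT compete for the same MAX and the same sites, and bring in SIN3 and histone deacetylases that lower transcription. In lymphocytes MYC is known for growth on activation, while MXD1 is known from maturing granulocytes and other cells leaving the cell cycle.

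Levels are library-scaled counts (CPM) with TMM factors over the 12 libraries, given library by library or as mean ± SD (n = 3). Fold changes are log2 ± SE from edgeR's quasi-likelihood test on the libraries of each comparison, and a gene was called at a Benjamini-Hochberg adjusted p under 0.05 over all genes tested. Library totals ran from 16769929 to 22928961 counts, at which 3 counts correspond to 0.131 to 0.179 CPM before scaling. Whether replicates came from different cultures or mice is not stated in the labels, so every p-value here reflects only how far these 3 libraries per group varied, and that variation may be technical. The cells carried their defining markers. Gata3 stood at a mean of 706 CPM in cocultured ILC2s and 0.315 CPM in cocultured eosinophils, and Siglecf at 0.257 and 1373 CPM. The 12 eosinophil markers summed to 2.65 to 4.12 CPM in the 6 ILC2 libraries against at least 8997 CPM in every eosinophil library. The eosinophil libraries also held transcripts of other lists. The 10 neutrophil markers, mostly Cxcr2, summed to 230 to 238 CPM alone and 127 to 141 CPM in coculture, with S100a8 and S100a9 among the 8 detected alone and Camp at 0 in both groups. The 10 basophil and mast cell markers summed to 59.2 to 68.9 CPM alone and 26.2 to 30.1 CPM in coculture, with Mcpt4 at 0 in both. The 10 monocyte and macrophage markers, mostly Adgre1, which eosinophils also express, summed to 2284 to 2411 CPM alone and 2129 to 2168 CPM in coculture. The 12 ILC2 markers, mostly Il1rl1, the IL-33 receptor gene, summed to 985 to 1018 CPM alone and 652 to 683 CPM in coculture, beside at least 7111 CPM in every ILC2 library. In ILC2 libraries the monocyte and macrophage list, mostly Ccr2, went from 799.5 to 821 CPM alone to 418 to 512 CPM in coculture. There the basophil and mast cell list, mostly Kit, went from 130.3 to 142 CPM to 50.9 to 62.3 CPM, with Mcpt4 and Tpsb2 at 0 in both groups. The neutrophil list went from 0.0698 to 0.3601 CPM to 1.73 to 5.74 CPM, mostly Mpo in coculture. Mpo went from a mean of 0.0416 to 2.42 CPM and Elane from 0 to 0.725 CPM, while S100a8 and S100a9 were at 0 in both groups. The 10 B and T cell markers summed to 78.1 to 83.9 CPM in ILC2s alone and 89.6 to 97.5 CPM in coculture, mostly Cd3g (means of 69.2 and 81.1 CPM). In the eosinophil libraries they summed to 18.3 to 23.4 CPM, mostly Cd79a. The part of these lists in the results was not tested.

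The network split by cell. ILC2s held Myc and Mycn, and eosinophils held almost none of either but more Mxd1, Mxi1 and Max. In ILC2s, Myc, Mxd3 and Mxi1 rose in coculture, and Mxd4 and Mnt fell. Mycl was also called higher there, but it had 4 counts in ILC2s alone and passed the low-count filter only through its cocultured libraries. In eosinophils, Mxd1 and Mxi1 fell in coculture, and Mxd4 and, by a small margin, Max rose.

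In ILC2s all 9 members could be tested, and 6 were called for coculture against culture alone (4 higher, 2 lower), where 72.4% of all 14438 genes tested were called, 36.8% higher and 35.6% lower. The median log2 fold change of the 9 members was -0.10, beside 0.003 over all genes. The share called is thus near that of all genes, and the members are described one by one. The number that fell depended on scaling. By library totals all 9 were called (4 higher, 5 lower), and by upper quartile 8 (4 higher, 4 lower), as without ILC2s alone replicate 2. In eosinophils 6 members could be tested and 4 were called (2 higher, 2 lower), where 24.9% of 13109 genes were called, 11.4% higher and 13.5% lower. Myc, Mycn and Mycl had too few counts there. Without eosinophils alone replicate 1, or cocultured replicate 1 or 3, 1 member rose in place of 2. In bulk libraries fewer cells holding a transcript and less of it per cell cannot be told apart.

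**Figure D1:**
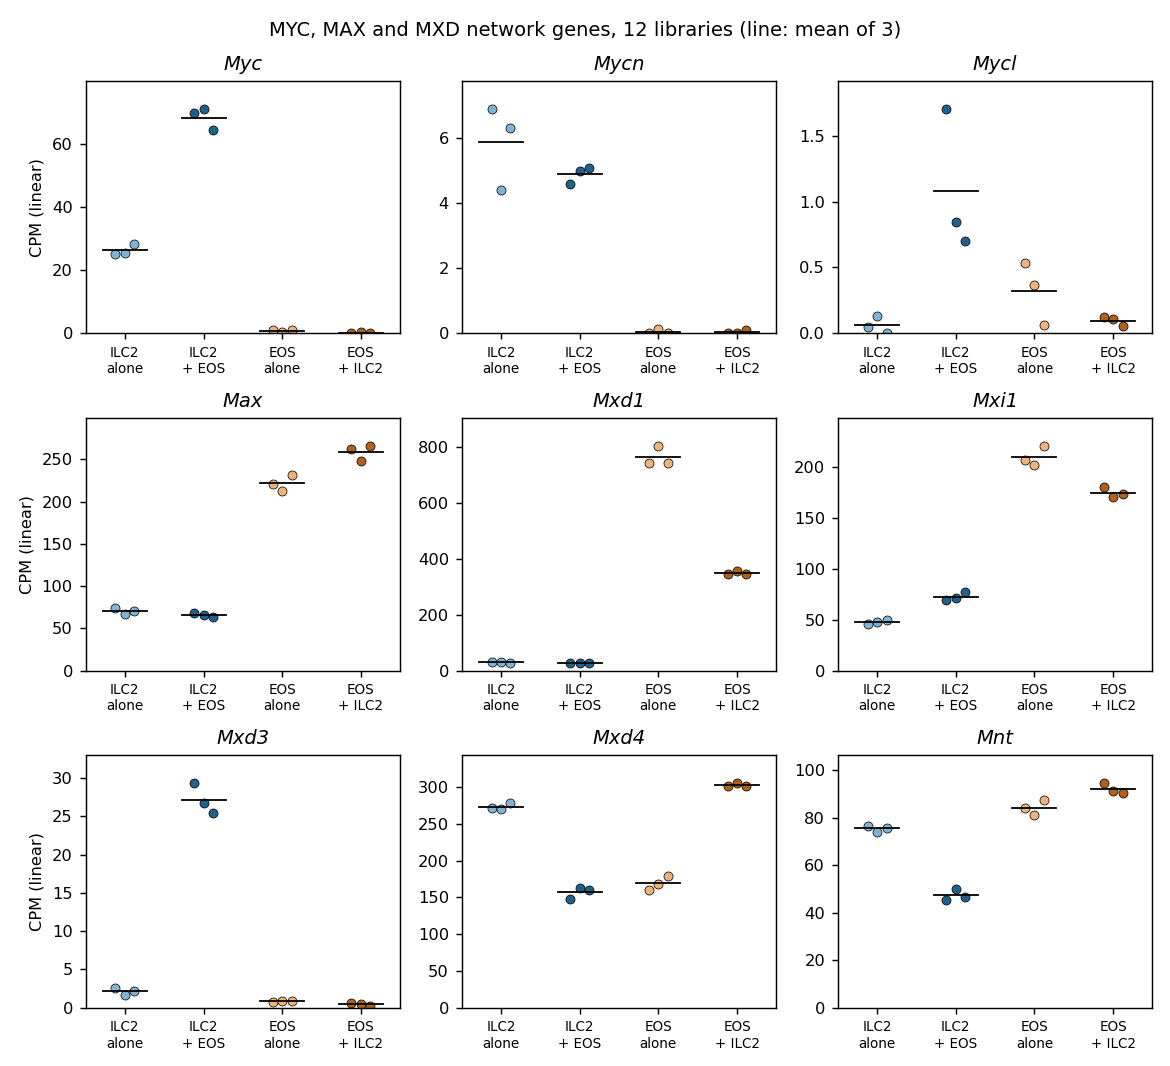
CPM (linear axes, scaled over the 12 libraries) of each network gene, 1 point per library and a line at the mean of 3. Myc, Mycn and Mxd3 are near 0 in all eosinophil libraries, and Mxd1 is highest in eosinophils alone, at 743 to 803 CPM.

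Among the activating members, Myc (ENSMUSG00000022346, chromosome 15, 61985391 to 61990374 on mm10, plus strand) encodes the founding factor of the family. It read 25.2, 25.4 and 28.3 CPM in ILC2s alone and 69.8, 71.1 and 64.3 CPM with eosinophils. Every cocultured library stood above every library alone. The rise was 2.58-fold (log2 1.36 ± 0.061, edgeR adjusted p = 5.0e-18), in a comparison where 14.0% of all genes rose beyond 2-fold. In eosinophils Myc read 1.07, 0.369 and 1.05 CPM alone and 0.185, 0.393 and 0.227 CPM with ILC2s. These are 39 counts alone and 14 in coculture over 3 libraries each, and the ranges overlapped. The ratio of cocultured to alone was 0.330 (95% exact counting interval 0.165 to 0.621, counting error only). Myc was not tested in the main eosinophil fit because of the low counts. It was called lower when all 12 libraries were fitted together (log2 -1.58, edgeR adjusted p = 0.00874) and without eosinophils alone replicate 2 (-1.97, adjusted p = 0.0135), and not with no filter on low counts (-1.60, adjusted p = 0.0748) or without any one cocultured library (adjusted p = 0.0668 to 0.166).

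Mycn (ENSMUSG00000037169, chromosome 12, 12936093 to 12941914, minus strand), a paralog best known from embryonic tissue and neuroblastoma, did not follow Myc. It read 6.90, 4.41 and 6.31 CPM in ILC2s alone and 4.59, 5.01 and 5.09 CPM with eosinophils. The ranges overlapped, and the difference did not pass (log2 -0.27 ± 0.16, edgeR adjusted p = 0.121). Without ILC2s alone replicate 2, the lowest library of its group, it was called lower (-0.44, adjusted p = 0.0115), as with scaling by library totals (-0.43, adjusted p = 0.0152). Eosinophils had 2 Mycn counts alone and 2 in coculture, under the floor of 3, so no fold is given between them. Mycl (ENSMUSG00000028654, chromosome 4, 122995652 to 123002485, plus strand), a paralog of dendritic cells and some lung tumours, was rare in all groups. It had 4 counts in ILC2s alone and 76 with eosinophils, or 0.0479, 0.135 and 0 CPM against 1.70, 0.842 and 0.697 CPM. Replicate 1 held 40 of the 76 cocultured counts, yet the groups did not overlap. The ratio was 19.3 (95% exact counting interval 7.25 to 72.8), and the gene was called (edgeR adjusted p = 1.8e-06). Mycl passed the low-count filter only through its cocultured libraries. In eosinophils it had 15 counts alone and 5 in coculture.

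Max (ENSMUSG00000059436, chromosome 12, 76937269 to 76962201, minus strand), the shared partner of the other members, differed more between cells than with coculture. It read 74.4, 67.4 and 70.0 CPM in ILC2s alone and 68.1, 66.3 and 63.9 CPM with eosinophils, which overlap. The difference did not pass (log2 -0.10 ± 0.049, edgeR adjusted p = 0.0619). Scaling decided that call. By library totals, which moved the median of all genes by -0.16, Max was called lower (-0.26, adjusted p = 2.9e-05), and by upper quartile too (-0.17, adjusted p = 0.00292). It was also called with a filter at 1 CPM (-0.11, adjusted p = 0.0421) and without ILC2s alone replicate 2 (-0.14, adjusted p = 0.027). Eosinophils read 221, 213 and 231 CPM alone and 262, 248 and 266 CPM with ILC2s, with no overlap. That rise of 1.14-fold (log2 0.19 ± 0.057) had an edgeR adjusted p of 0.0226. It was lost without eosinophils alone replicate 1 (adjusted p = 0.0951) and without cocultured replicate 1 (0.0871) or 3 (0.109).

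Among the repressing members, Mxd1 (ENSMUSG00000001156, chromosome 6, 86647042 to 86669161, minus strand) was the eosinophil gene of the network. Eosinophils alone read 743, 803 and 743 CPM and eosinophils with ILC2s 347, 358 and 345 CPM. The groups were far apart. The fall was 2.23-fold (log2 -1.15 ± 0.057, edgeR adjusted p = 5.4e-09), in a comparison where 4.61% of all genes fell beyond 2-fold. ILC2s read 31.6, 30.1 and 28.6 CPM alone and 27.5, 27.7 and 28.4 CPM in coculture. The lowest library alone stood just above the highest in coculture, and the difference did not pass (log2 -0.12 ± 0.068, edgeR adjusted p = 0.122). Scaling again decided it, since Mxd1 was called lower by library totals (-0.27, adjusted p = 0.00069) and by upper quartile (-0.19, adjusted p = 0.0168).

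Mxi1 (ENSMUSG00000025025, chromosome 19, 53310518 to 53375810, plus strand), known as a hypoxia-inducible member, moved in opposite directions in the 2 cells. ILC2s rose from 45.7, 48.1 and 50.1 CPM to 69.5, 71.5 and 76.8 CPM, a 1.502-fold change (log2 0.59 ± 0.053, edgeR adjusted p = 6.3e-11). Eosinophils fell from 206, 202 and 220.2 CPM to 180.2, 171 and 173 CPM, a 1.22-fold change (log2 -0.29 ± 0.056, adjusted p = 0.0017). Neither pair of groups overlapped.

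Mxd3 (ENSMUSG00000021485, chromosome 13, 55325168 to 55329823, minus strand) is the member known from S phase and proliferating progenitors rather than from differentiated cells. It read 2.59, 1.71 and 2.23 CPM in ILC2s alone and 29.3, 26.8 and 25.4 CPM with eosinophils. That rise of 12.4-fold (log2 3.63 ± 0.12, edgeR adjusted p = 8.4e-21) was the largest among the 8 members with over 10 counts in ILC2s alone. Eosinophils read 0.735, 0.862 and 0.866 CPM alone and 0.679, 0.450 and 0.171 CPM with ILC2s, 39 and 22 counts in all. The difference in eosinophils did not pass (log2 -0.96 ± 0.49, edgeR adjusted p = 0.189). The 3′ end of Mxd3 shares 105 exon bases, 4.43% of its exons, with Prelid1 on the other strand, and the strand setting of the counting is not given in the sources used here. Prelid1, a mitochondrial lipid transfer gene, also rose in ILC2s (log2 1.59 ± 0.042) and fell in eosinophils (-1.09 ± 0.08), with edgeR adjusted p = 2.1e-23 and 2.7e-07. Prelid1 had 24113 counts in eosinophils alone beside 39 of Mxd3, and 29786 in cocultured ILC2s beside 1913 of Mxd3.

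Mxd4 (ENSMUSG00000037235, chromosome 5, 34173883 to 34187720, minus strand), known from resting and differentiated cells, mirrored itself between the cells. ILC2s fell from 271, 269.8 and 278 CPM to 148, 163 and 161 CPM, and eosinophils rose from 160.0, 169 and 179 CPM to 302, 305 and 302 CPM. With TMM scaling, cocultured eosinophils thus stood above ILC2s alone, and cocultured ILC2s overlapped with eosinophils alone. This order between the cells changed without that scaling, as described with the order of levels below. The fall in ILC2s was 1.74-fold (log2 -0.80 ± 0.04, edgeR adjusted p = 9.3e-17), and the rise in eosinophils 1.75-fold (log2 0.81 ± 0.057, adjusted p = 1.7e-07). Mnt (ENSMUSG00000000282, chromosome 11, 74830920 to 74845725, plus strand), the broadly expressed MAX partner that opposes MYC in most cells, fell with Mxd4 in ILC2s. It read 76.7, 74.1 and 75.9 CPM alone and 45.6, 50.04 and 46.8 CPM with eosinophils (log2 -0.68 ± 0.051, edgeR adjusted p = 8.4e-13). In eosinophils Mnt read 84.2, 81.3 and 87.4 CPM alone and 94.5, 91.5 and 90.6 CPM with ILC2s. The groups did not overlap there but the test did not pass (log2 0.10 ± 0.06, edgeR adjusted p = 0.266).

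**Figure D2:**
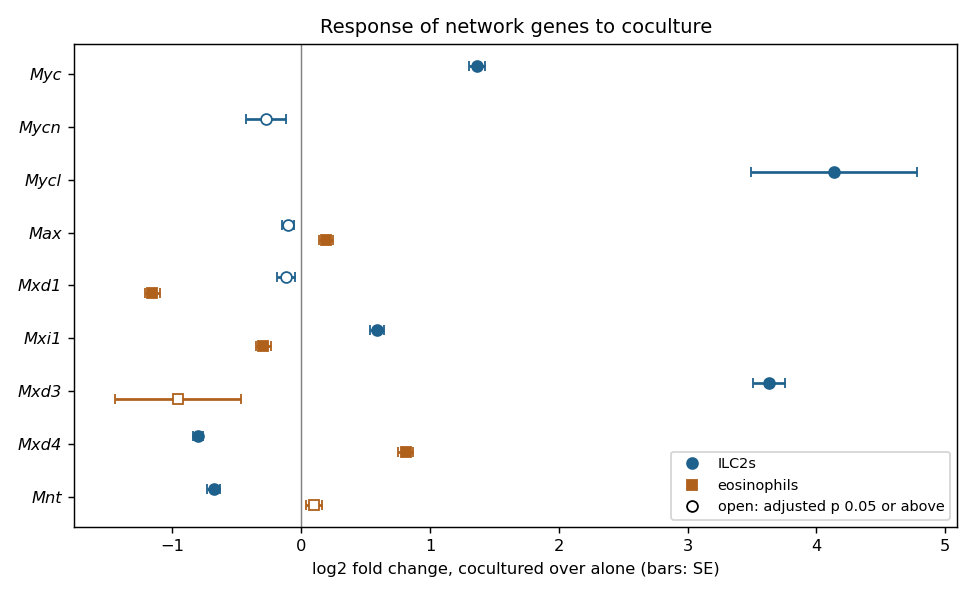
Log2 fold change (cocultured over alone, bars SE) of each tested network gene in ILC2s (circles) and eosinophils (squares), with open symbols for genes not called. Mxd4 stands at -0.80 in ILC2s and 0.81 in eosinophils, and Mxi1 at 0.59 and -0.29.

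Promoters of 8 members were matched in RefSeq on GRCm38.p6 (250 bases before to 50 after each gene's start), and Myc was not matched. Of these 8, Mxd4, Mnt and Max have promoters that hold the E-box CACGTG, and the sequences around it are shown for that reason. Whether the motif relates to any change in level was not tested. CACGTG reads the same on both strands, and 3 of the 8 genes held it, while 7.15% of all 32851 promoters did, and 11.6% of the 10026 genes tested in ILC2s with a promoter. The motif is in capitals, with up to 40 bases on each side, 5′ to 3′ on the gene's strand. It begins 219 bases before the start of Mxd4 (chr5:34187884-34187960, minus strand), 123 before that of Mnt (chr11:74830761-74830846, plus strand) and 3 before that of Max (chr12:76962244-76962291, minus strand).
Mxd4: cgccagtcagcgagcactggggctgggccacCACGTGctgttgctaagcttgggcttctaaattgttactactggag
Mnt: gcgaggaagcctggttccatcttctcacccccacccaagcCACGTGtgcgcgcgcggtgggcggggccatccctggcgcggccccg
Max: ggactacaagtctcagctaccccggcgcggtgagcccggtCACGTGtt
These letters were not in the windows of Mycn, Mycl, Mxd1, Mxd3 or Mxi1. The match describes the sequence only, since binding was not measured.

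Levels of different genes were set side by side per length, as TPM (counts per kilobase of merged exons, relative to their sum in the library, without TMM scaling). On this scale Max stood at 89.0 ± 1.10 TPM in ILC2s alone and 65.1 ± 3.60 TPM in coculture, a gap that TMM-scaled CPM did not show, and it was not tested. In ILC2s alone Mxd4 was the main repressor transcript at 146 ± 6.38 TPM, 53.0% ± 0.361 of the sum over Mxd1, Mxi1, Mxd3, Mxd4 and Mnt, followed by Mnt (26.9% ± 0.315, or 17.8% with the length of the longest transcript) and Mxi1 (11.6% ± 0.502). With eosinophils Mxd4 made up 33.8% ± 1.12 of that sum, and Mxd3 went from 1.51% ± 0.295 to 20.9% ± 1.84. In eosinophils alone Mxd1 held 60.9% ± 1.81 of the sum at 296 ± 17.5 TPM. With ILC2s Mxd1 held 37.8% ± 0.624 and Mxd4 27.3% ± 0.27, up from 11.3% ± 0.531. The leading repressor transcript thus stayed Mxd4 in ILC2s and Mxd1 in eosinophils, with a smaller share in coculture in both.

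The balance of repressors and activators can be read as a ratio within each library. The repressor sum was 5.31 ± 0.294 times the MYC family sum in ILC2s alone (4.99 to 5.58) and 2.04 ± 0.113 times with eosinophils (1.956 to 2.171), without overlap. In eosinophils it was 484 ± 181 times alone and 1025 ± 289 times with ILC2s, a ratio that rests on the few MYC family counts there. Relative to Max, the repressor sum was 3.10 ± 0.136 and 2.99 ± 0.135 in ILC2s alone and cocultured, which overlap, and 2.88 ± 0.157 and 1.82 ± 0.0797 in eosinophils. The MYC family sum per Max was 0.585 ± 0.0428 in ILC2s alone and 1.46 ± 0.043 in coculture. With the length of the longest transcript in place of merged exons, it was 0.371 ± 0.0269 and 0.922 ± 0.027, so whether the MYC family sum exceeded Max in coculture depended on the length used. The 2 groups did not overlap with either length. These ratios are descriptions over the members, with no test.

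**Figure D3:**
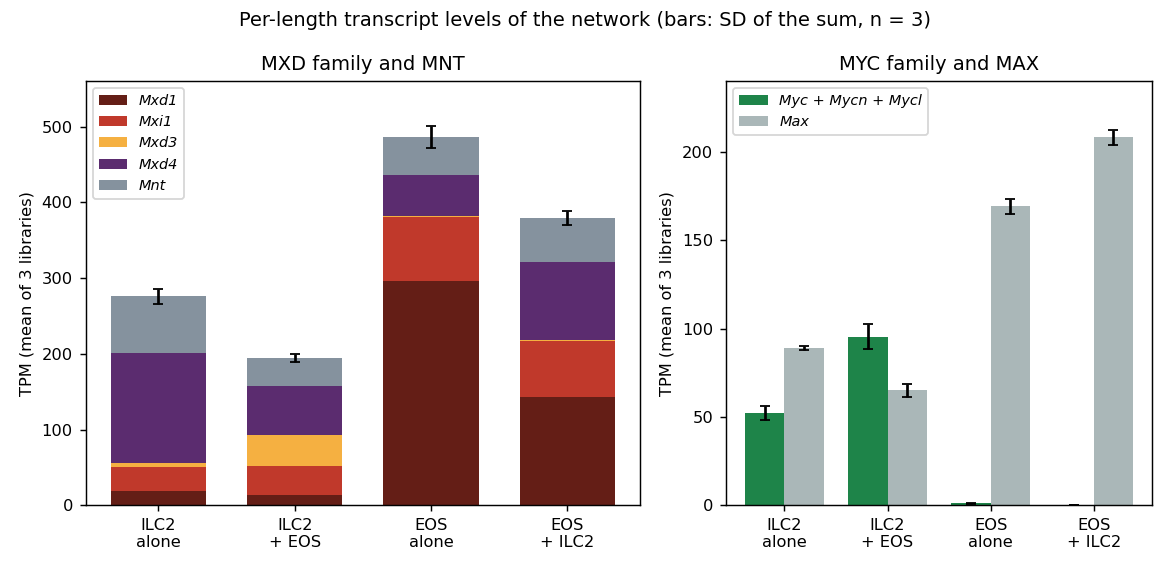
TPM per group (mean of 3 libraries). Left, the repressor genes stacked, with SD of their sum, which was 486 in eosinophils alone and 194 in cocultured ILC2s. Right, the MYC family sum and Max with SD, where the MYC family stands above Max in cocultured ILC2s (95.4 against 65.1), an order that turned with the length of the longest transcript (84.2 against 91.3).

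The coculture responses of the 2 cells were compared with an interaction term over all 12 libraries. Of the 9 members 8 differed (5 higher and 3 lower in ILC2s relative to eosinophils), where 51.5% of 15745 genes did, 26.8% higher and 24.8% lower. Myc and Mycl, counted among the 8, and Mycn passed the low-count filter of this fit only through ILC2 libraries. For Mycl these were the cocultured ones alone. Mxd4 had the smallest p (log2 difference -1.64 ± 0.075, edgeR adjusted p = 9.1e-15), followed by Mxd1 (1.01 ± 0.079, adjusted p = 1.3e-10) and Mxi1 (0.86 ± 0.081, adjusted p = 3.6e-09). Mycn did not differ by this test (-0.16 ± 1.84, adjusted p = 0.966), with an error set by its 4 eosinophil counts.

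Between the cell types cultured alone, 8 members could be tested and all 8 were called (4 higher in ILC2s, 4 lower), where 80.7% of 14525 genes were called, 40.8% higher and 39.9% lower in ILC2s. Myc and Mycn, with 39 and 2 counts in eosinophils, passed the low-count filter only through the ILC2 libraries. Myc was 31.9-fold higher in ILC2s (log2 5.00 ± 0.20, edgeR adjusted p = 4.6e-12). Mycn had 423 counts in ILC2s and 2 in eosinophils, the latter all in replicate 2 and under the floor of 3, so no single fold is given. The 95% exact counting interval of its ratio ran from 38.4 to 1157 (counting error only). Mxd4 and Mxd3 were higher in ILC2s by 0.70 ± 0.058 and 1.40 ± 0.32 (log2). Eosinophils held 25.2-fold more Mxd1 (log2 -4.66 ± 0.072, edgeR adjusted p = 7.1e-17), 4.34-fold more Mxi1 and 3.12-fold more Max. The small difference in Mnt (log2 -0.15 ± 0.059, edgeR adjusted p = 0.0292) had no settled direction. By library totals, which moved the median of all genes by 0.57, Mnt was higher in ILC2s (0.42, adjusted p = 8.8e-06), and by upper quartile, a shift of 0.23, it did not pass (0.08, adjusted p = 0.196). Without any one of 5 libraries its call was also lost (adjusted p = 0.0622 to 0.112). These were each of the ILC2s alone libraries and eosinophils alone replicates 1 and 3.

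After coculture all 9 members were called between the cells (4 higher and 5 lower in ILC2s), where 84.0% of 14634 genes were called, 43.6% higher and 40.5% lower. The 4 higher, Myc, Mycn, Mycl and Mxd3, had 14, 2, 5 and 22 counts in cocultured eosinophils. They passed the low-count filter only through the ILC2 libraries, where they are high. The gap in Myc was 4811 counts in ILC2s against 14 in eosinophils, a ratio of 252 (95% exact counting interval 149.8 to 460.4). For Mxd3 it was 1913 against 22, a ratio of 63.6 (41.9 to 102). Mxd1 was 12.6-fold higher in eosinophils, and Mxi1 2.42-fold (log2 -3.66 ± 0.054 and -1.27 ± 0.052, edgeR adjusted p = 1.4e-30 and 2.1e-19). Mxd4, higher in ILC2s when both were alone, was 1.94-fold higher in eosinophils after coculture (log2 -0.95 ± 0.048, edgeR adjusted p = 4.0e-17).

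Around the 9 members, lists of related genes were described by counts, beside the medians over all genes tested given above (0.003 in ILC2s and 0.004 in eosinophils). MLX, MLXIP, MLXIPL and MGA form the neighbouring branch of the network, MLX being a MAX-like partner of glucose-sensing factors and MGA a MAX partner of repressive complexes. Of the 3 that could be tested, Mlxip (log2 -0.45 ± 0.04) and Mga (-0.36 ± 0.046) fell in ILC2s and Mlx rose (0.33 ± 0.065), with edgeR adjusted p from 3.8e-11 to 6.0e-05. None was called in eosinophils (Mlx -0.14, Mlxip 0.03, Mga -0.05, edgeR adjusted p = 0.186 to 0.82). Of all genes, 72.4% were called in ILC2s (36.8% higher, 35.6% lower) and 24.9% in eosinophils, and 3 genes are too few to differ from these shares. Mlxipl had 12 and 9 counts in the ILC2 groups and 1 and 0 in the eosinophil groups.

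Of 21 genes for chromatin partners of MYC and MXD proteins, 10 rose, 8 fell and 3 were not called in ILC2s (median log2 0.12), where 36.8% of all genes rose and 35.6% fell. Ruvbl2, a helicase of MYC coactivator complexes, rose (1.15 ± 0.064) and so did the deacetylase gene Hdac1 (0.63 ± 0.041). The corepressor gene Ncor1 (-0.62 ± 0.037), the SIN3 subunit gene Suds3 (-0.72 ± 0.044) and the MYC-binding ubiquitin ligase gene Mycbp2 (-0.78 ± 0.039) fell, with edgeR adjusted p from 9.6e-17 to 7.4e-15 among these 3. In eosinophils 2 of the 21 were called, both lower, where 24.9% of all genes were called and 13.5% fell. They were Ruvbl2 (-0.94 ± 0.076, edgeR adjusted p = 7.1e-07) and the SIN3 subunit gene Sap30 (-1.43 ± 0.30, adjusted p = 0.00306). Sin3a, the scaffold that MXD proteins bind, did not pass in eosinophils (0.15 ± 0.065, edgeR adjusted p = 0.113).

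Of 19 genes that act on MYC stability, 10 rose and 8 fell in ILC2s (median log2 0.24), and 1 rose and 5 fell in eosinophils (median -0.06). Of all genes, 36.8% rose and 35.6% fell in ILC2s, and 11.4% rose and 13.5% fell in eosinophils. The PIM kinase genes, whose products phosphorylate and steady MYC, went opposite ways. Pim2 rose from 36.9 to 154 CPM in ILC2s (log2 2.06 ± 0.052, edgeR adjusted p = 7.7e-24) and fell from 851 to 234 CPM in eosinophils (-1.89 ± 0.057, adjusted p = 4.1e-11). Pim1 stood at 165 and 412 CPM in ILC2s alone and cocultured (1.31 ± 0.04), and at 2092 and 742 CPM in eosinophils (-1.52 ± 0.072), with edgeR adjusted p = 6.3e-22 and 3.8e-09. In eosinophils Pim3 also fell (-0.87 ± 0.11). Aurka (3.31 ± 0.085) and Plk1 (3.02 ± 0.086), mitotic kinase genes, and Cip2a (2.28 ± 0.073), which encodes an inhibitor of the phosphatase that destabilises MYC, rose in ILC2s. The 8 that fell there included Fbxo32 (-1.98 ± 0.065), Usp28 (-1.96 ± 0.085) and Fbxw7 (-0.75 ± 0.075), so the list had no common direction.

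Of 40 genes known to be raised by MYC, 39 rose in ILC2s and 0 fell (median log2 1.20), beside 36.8% of all genes higher and 35.6% lower, while Ccnd2 was not called (-0.04, edgeR adjusted p = 0.359, named after its value was seen). The 5 with the smallest p were Ldha (2.45 ± 0.038), the lactate dehydrogenase gene, Tfrc (3.78 ± 0.063), the transferrin receptor gene, Odc1 (1.83 ± 0.044) of polyamine synthesis, the chaperone gene Hspd1 (1.60 ± 0.046) and the nucleolar gene Nop58 (1.45 ± 0.051). Their edgeR adjusted p ran from 7.7e-29 to 2.2e-20. In eosinophils 39 of the 40 were tested, 5 rose, 6 fell and 28 were not called (median 0.05), beside 11.4% of all genes higher and 13.5% lower. The clearest falls there were Ldha (-1.39 ± 0.054), Ccnd2 (-2.07 ± 0.12), a G1 cyclin gene, and Hk2 (-0.85 ± 0.051), a hexokinase gene, with edgeR adjusted p of 5.1e-10 to 3.5e-08. Many of these genes are also regulated by other factors, and the list was chosen with earlier results of these data known.

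Of 10 genes known to be lowered by MYC, 9 could be tested in ILC2s, where 3 rose, 3 fell and 3 were not called (median 0.04), beside 36.8% of all genes higher and 35.6% lower. Btg1 (-1.10 ± 0.046) and the cyclin-dependent kinase inhibitor gene Cdkn1b (-0.98 ± 0.051) fell, and Cdkn1a (0.82 ± 0.044), which encodes p21, and Ndrg1 (0.94 ± 0.047) rose. Ccng2 was called higher (0.13 ± 0.042, edgeR adjusted p = 0.00713) but stood at -0.03 by library totals. In eosinophils all 8 tested genes of this list fell (median -0.41), beside 13.5% of all genes. They included Cdkn1a, from 196 to 45.8 CPM (-2.13 ± 0.067, edgeR adjusted p = 5.5e-11), Ndrg1, a gene also induced by hypoxia, from 43.4 to 3.54 CPM (-3.64 ± 0.18, adjusted p = 6.1e-09), and Ndrg2 (-1.18 ± 0.12, adjusted p = 5.0e-06).

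**Figure D4:**
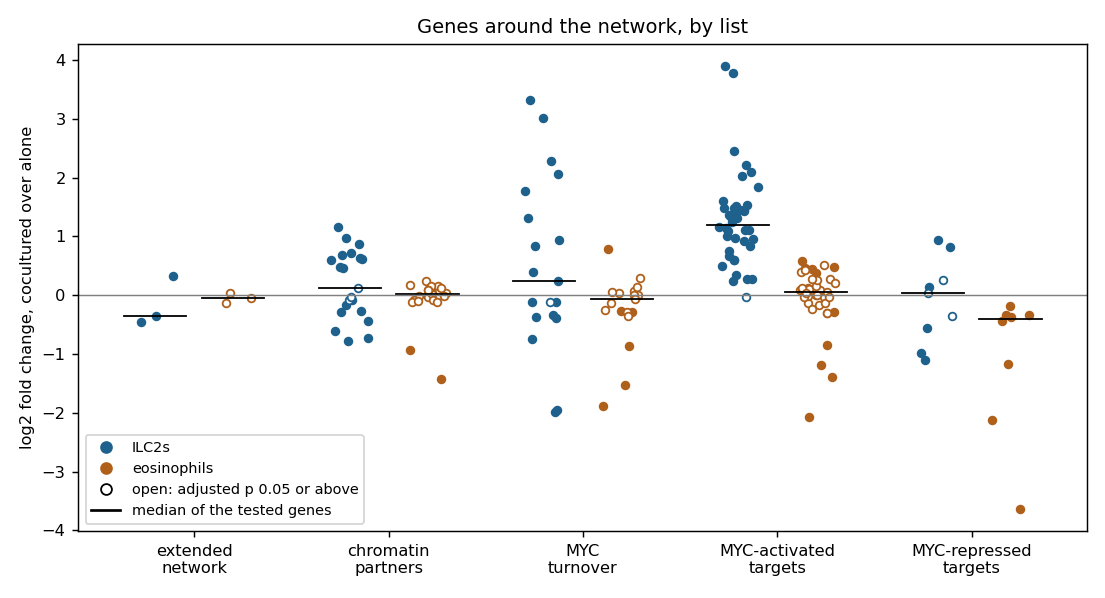
Log2 fold change (cocultured over alone) of each tested gene by list, in ILC2s (blue) and eosinophils (orange), with open points for genes not called and a line at each list's median. The median of genes known to be raised by MYC is 1.20 in ILC2s and 0.05 in eosinophils. The lists were chosen with earlier results of these data known.

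The order of levels set the members apart. By TMM-scaled CPM, Mxd4 was highest in cocultured eosinophils, then in ILC2s alone, eosinophils alone and cocultured ILC2s, the last 2 overlapping. By TPM, without that scaling, ILC2s alone came first (146 TPM, against 103 TPM in cocultured eosinophils). On that scale cocultured ILC2s (63.1 to 68.8 TPM) stood above eosinophils alone (52.8 to 56.3 TPM). Mxd1 and Mxi1 shared an order with eosinophils alone first and cocultured eosinophils second, but ended with opposite ILC2 groups. For each member with a mean of at least 2 CPM, the genes with the most similar profile were listed by Pearson r of log2(CPM + 0.5) over the 12 libraries, among 10198 genes. These r values are descriptions. The libraries form 4 groups that share cell type and culture, so high values are common. For Myc, 1064 genes exceeded 0.95, and the first was Cysltr1, a leukotriene receptor gene (r = 0.9984), whose means were 104, 320, 1.13 and 0.27 CPM in ILC2s alone, cocultured ILC2s, eosinophils alone and cocultured eosinophils. For Mxd3 the first 3 were Clspn, a replication checkpoint gene (r = 0.9952), Tmpo (0.9941), a nuclear lamina gene, and Ska3 (0.9927), a kinetochore gene. Mxd4 had the fewest similar genes, 13 above 0.95, led by Pacs1 (0.987), Prkd3 (0.9799) and Pde3b (0.9781). Mnt was most like Arhgap9 (0.9935) and Btg2 (0.9926), an antiproliferative gene, and Mxd1 most like Lypd6 (0.9993), Mxi1 like Rbms1 (0.9986), Max like Csnk1e (0.999) and Mycn like Nfia (0.9977).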

How the data were processed

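Gene-level RNA-seq counts, deposited by the authors as unnormalized whole numbers with 1 column per library, were the only values used. Per the submitters' processing notes, STAR 2.5.2b, Subread 1.5.2 with featureCounts, Trimmomatic 0.36 and bcl2fastq 2.17 were among the tools, and mm10 was the build. For annotation release, strand setting and multi-mapping reads, the choice is not given in the sources used here. GENCODE M21 (mm10) gave symbols for 49056 of 49315 genes, positions and merged exon lengths. The members and lists were chosen with earlier results of these data known.

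Each comparison was fitted in edgeR 4.0.16 (R 4.3.3) with filterByExpr, TMM and the quasi-likelihood F test on its own 6 libraries, or on all 12 for the difference of responses, without covariates. SE was the log2 fold change divided by the square root of F. Alternatives were library totals, upper quartile, DESeq2 1.42.0, limma-voom 3.58.1, other count filters, all 12 libraries together, a replicate block and leaving out each library. The fit was tested on simulated data. No replicate pair was a duplicate (chi-square per degree of freedom 2.57 to 19.5). Members with a mean of at least 2 CPM were set against genes averaging at least 5 CPM for likeness, with a pseudocount of 0.5. Named genes were all members and, per list, the 5 smallest adjusted p in ILC2s and 3 in eosinophils. Others were chosen after their values were seen.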

Additional observations from a re-analysis of the deposited data

Results flagged for a closer look

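The coculture response differed between ILC2s and eosinophils for 8 of the 9 members, by the interaction term of edgeR over all 12 libraries. In the same test 51.5% of 15745 genes differed, 26.8% higher and 24.8% lower, so a differing response was common among all genes. The difference is the log2 change in ILC2s minus that in eosinophils. It was -1.64 for Mxd4 (adjusted p = 9.1e-15), which fell in ILC2s and rose in eosinophils, and -0.80 for Mnt (adjusted p = 9.6e-09). It was 1.01 for Mxd1 (adjusted p = 1.3e-10), 0.86 for Mxi1 (adjusted p = 3.6e-09) and 4.58 for Mxd3 (adjusted p = 7.5e-09). Max differed by -0.32 (adjusted p = 0.00138). The values of Myc (2.95, edgeR adjusted p = 5.0e-06) and Mycl (5.77, adjusted p = 0.000195) rest on 53 and 20 counts in all 6 eosinophil libraries. Their size and their calls depend on those few counts. Both genes passed the low-count filter only through ILC2 libraries, where they are high, and Mycl only through the cocultured ones. These 2 calls are therefore not taken as support for a differing response. The size of the Mxd3 value also depends on few counts, with 39 in eosinophils alone and 22 in cocultured eosinophils. Its change in eosinophils was not called.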

How the results depend on the processing

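Every total of genes and of members called stayed within 1.5 times its value under all alternatives run, but members lower in ILC2s went from 2 to 5 by library totals and to 4 by upper quartile or without ILC2s alone replicate 2, and members higher in eosinophils from 2 to 1 when any one of 3 libraries was left out. Of 615 values of single members under an alternative, 593 kept direction and side of the threshold, 9 lost the call, 8 gained it and 5 changed sign. The sign changes were Mnt between cell types alone by library totals (0.42) and upper quartile (0.084), and the uncalled interaction of Mycn (-3.14 to 2.71 as single libraries were left out, turning positive in 3 cases). Among list genes, Ccng2 changed sign in ILC2s by library totals (-0.027). In eosinophils the uncalled Mga did so by library totals (0.0056) and as single libraries were left out (-0.17 to 0.11), and the uncalled Mlxip likewise (-0.030 to 0.083). Library totals moved the share of calls that were higher from 50.8% to 40.9% in ILC2s, from 45.7% to 58.0% in eosinophils, from 50.5% to 70.1% between cell types alone, from 51.8% to 65.8% between them in coculture and from 52.0% to 39.6% for the difference of responses. Length of the longest transcript in place of merged exons gave 6.91 repressors per MYC family transcript in ILC2s alone and 2.57 in coculture. Repressors per Max were then 2.55 and 2.36 in these groups, 2.29 in eosinophils alone and 1.47 in cocultured eosinophils. MYC family per Max was 0.371, 0.922, 0.00404 and 0.00119 in the same order. Same-numbered libraries did not deviate together in every pair (r from -0.098 to 0.368, pooled over comparisons), so the numbers were not taken as pairs. Between the eosinophil groups the same-numbered r were all positive (0.059, 0.368 and 0.130), while different numbers gave -0.335 to 0.221. The replicate block changed no member's call (genes called in eosinophils went from 3264 to 4168). Sin3a, not called in eosinophils, was called with that block (adjusted p = 0.0292) and by library totals (0.0314), with all 12 libraries (0.0139) and without eosinophils alone replicate 2 (0.0318). Values of Mycn, Mycl, Myc and Mxd3 in eosinophils rest on few counts.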

Other observations

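Gm44292, a transcript annotated inside Mxd1 on the same strand (chromosome 6, 86663188 to 86665551 on mm10) with no exon bases in common, was looked at after its values were seen. It read 24.0, 33.5 and 34.0 CPM in eosinophils alone and 10.6, 8.49 and 8.87 CPM with ILC2s, without overlap (log2 -1.75 ± 0.14, edgeR adjusted p = 8.5e-07). Mxd1 fell by 1.15 on the log2 scale in the same libraries. ILC2 libraries held at most 0.663 CPM of Gm44292. Whether its counts are introns of Mxd1 or a separate RNA was not tested.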
